A study of Mus musculus with 9 samples.

Results

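Avidity, the combined strength with which the receptors of a T cell hold peptide-MHC, was compared here across all 9 libraries of the study, without regard to tumor outcome. CD8+ TILs (tumor-infiltrating lymphocytes) specific for GSW11, a tumor peptide of CT26 presented by MHC class I, were sorted by how brightly they bound a GSW11 tetramer. The 6 low avidity libraries were 3 from regressing tumors (TetLowReg 6, 7 and 8) and 3 from progressing tumors (TetLowProg 9, 10 and 12). The 3 high avidity libraries all came from progressing tumors (TetHighProg 1, 2 and 5), so 9 of 9 libraries entered and were assigned by their titles. All 3 groups were wildtype BALB/c mice bearing subcutaneous CT26.WT tumors, a colorectal carcinoma line of that strain, and all had been given PD-1 antibody (clone RMP1-14) on days 3, 6 and 9. No untreated or tetramer-negative group was among the libraries, no high avidity library came from a regressing tumor, and the ages of the mice were not given in the sources used here. The study took its RNA from 3 progressing and 3 regressing tumors, so TetHighProg and TetLowProg libraries came from the same 3 progressing tumors. Which library of one group shares a tumor with which of the other is not given in the sources used here. Every fit and permutation therefore treated the 9 libraries as independent, and p-values measure the spread between these libraries only.

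A T cell is activated when its receptor and the CD3 chains bind peptide-MHC, with CD8 as the coreceptor that brings the kinase Lck to the complex. Prolonged antigen contact in tumors is known to drive CD8+ T cells from a TCF-1+ progenitor state towards exhaustion, in which inhibitory receptors such as PD-1 are kept on the surface. The comparison asked which transcripts separated low from high avidity cells in both low avidity groups.

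The number of genes found set the frame for every gene below. A gene was counted as detected at 10 counts or more, a count being a read assigned to that gene. The TetHighProg libraries held 1298, 599 and 3181 detected genes. The TetLowReg libraries held 766, 8004 and 7234, and the TetLowProg libraries held 8071, 1148 and 6443. Low avidity libraries averaged 5278 ± 3401 (SD, n = 6) against 1693 ± 1335 (SD, n = 3), a difference of 3585 genes that did not exceed the spread between libraries (two-sided exact permutation test over 84 ways, p = 0.167, where the smallest possible p is 0.0238). TetLowReg 6 and TetLowProg 10 lay within the range of the high avidity libraries, whereas the other 4 low avidity libraries lay above all of it. Totals were 16405306 to 36429515 counts, and TetHighProg 1 gave 1298 genes from 33409472 counts where TetLowReg 8 gave 7234 from 16405306. In bulk RNA, fewer cells of a type and less RNA per cell cannot be told apart, and 22 cycles of cDNA amplification without molecular identifiers mean that every counting interval covers counting error only.

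**Figure D1:**
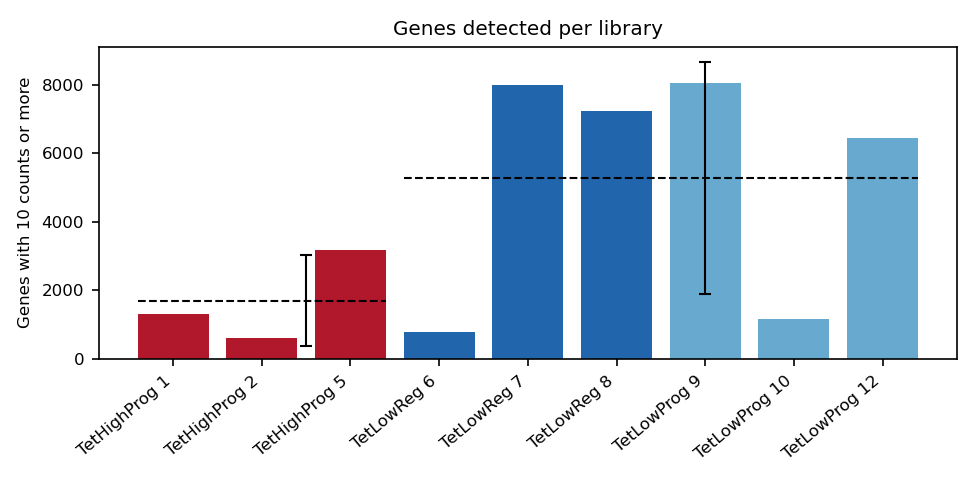
Number of genes with 10 counts or more (y axis) in each of the 9 libraries (x axis), with dashed lines and bars for the mean and SD of the 3 high and 6 low avidity libraries. TetLowReg 6 (766) and TetLowProg 10 (1148) sit among the high avidity libraries (599 to 3181), and the other low avidity libraries hold 6443 to 8071 genes.

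The sorted cells carried T cell transcripts, with gaps. Of 25 T cell identity genes, 12, 6 and 22 were detected in TetHighProg 1, 2 and 5, and 9 to 25 in the low avidity libraries. Cd8b1, the CD8 beta chain, had 79539, 78155 and 45442 counts in TetHighProg, 8, 1250 and 4006 in TetLowReg, and 39376, 75010 and 16482 in TetLowProg. In CPM, counts scaled to a common library total, TetHighProg ranged from 2003 to 3086, TetLowProg 10 lay within this range at 2984, and the other 5 low avidity libraries lay below it (log2 fold change -2.08, SE 1.91, edgeR quasi-likelihood test, Benjamini-Hochberg adjusted p = 0.478). By 2 other tests the adjusted p of Cd8b1 was 0.487 (DESeq2) and 0.0344 (limma-voom, log2 fold change -3.70). Cd8a, the alpha chain, had 0, 0 and 123 counts in TetHighProg, 47022, 2419 and 3680 in TetLowReg, and 24040, 0 and 3755 in TetLowProg. The groups overlapped for Cd8a because TetLowProg 10 had no count (exact p = 0.0952, and 0.524 after adjustment over 11 sort and staining markers). Its adjusted p was 0.135 by edgeR, 0.00343 by DESeq2 and 0.000276 by limma-voom. DESeq2 and limma-voom called 51.6% and 64.2% of all genes with an adjusted p higher in low avidity. Cd3e, a CD3 signaling chain, was found in both groups, with 3828, 6 and 1109 counts in TetHighProg and 0 to 14452 in low avidity.

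The other markers by which the cells were sorted or stained did not separate the groups either. Cd44, the adhesion receptor of antigen-experienced T cells, had 0, 0 and 287 counts in TetHighProg and 0 to 1421 in low avidity, with 3 low avidity libraries at 0 to 2 counts. The adjusted p of Cd44 was 0.714 by edgeR, 0.501 by DESeq2 and 0.0233 by limma-voom. Pdcd1, which encodes PD-1, had no count in TetHighProg and 8322 and 9258 counts in TetLowProg 9 and 12, but 0, 4 and 1 in TetLowReg and 0 in TetLowProg 10. Entpd1, which encodes CD39, was found in TetLowReg 7 alone with 2259 counts, and Tbx21, which encodes T-bet, in TetLowProg 9 alone with 4499. Eomes, a T-box factor of exhausted and memory cells, had 64 counts in TetLowReg 8 and at most 2 elsewhere. Tcf7, which encodes TCF-1, had 2466, 1 and 38620 counts in TetHighProg, 0, 255 and 8892 in TetLowReg, and 18867, 27422 and 29432 in TetLowProg. Its fold change was -0.02 on the log2 scale (SE 2.46, edgeR adjusted p of 1), and its sign changed with the tool used and with the library left out.

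Effector transcripts were found in low avidity libraries but not in every one. Gzmb, the cytotoxic protease granzyme B, had no count in TetHighProg, 0, 857 and 2898 in TetLowReg, and 3063, 0 and 1129 in TetLowProg. All 4 low avidity libraries with many genes held Gzmb, and neither of the sparse ones did (edgeR log2 fold change 13.61, SE 6.25, adjusted p = 0.101; exact p = 0.238). Gzmb passed the threshold by DESeq2 (adjusted p = 0.000245) and by limma-voom (adjusted p = 0.000645). These tests called 51.6% and 64.2% of all genes with an adjusted p higher. Ifng, the gene of the effector cytokine interferon gamma, was found in TetLowReg 7 with 2349 counts and TetLowProg 9 with 11244 and had at most 1 count elsewhere.

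Of 5813 genes tested with edgeR, 1 was called (adjusted p under 0.05 with a log2 fold change beyond 2 in either direction), which is 0.0172% of those tested. It was lower in low avidity, and 0.0% were called higher. Fem1b, a substrate receptor of a ubiquitin ligase, had 0, 144891 and 666 counts in TetHighProg and 0, 2, 0, 136, 1 and 0 in the low avidity libraries in the order TetLowReg 6, 7, 8 and TetLowProg 9, 10, 12. TetHighProg 2 carried nearly all of these reads, TetHighProg 1 had none, and the groups overlapped. It fell by 12.91 on the log2 scale (SE 2.86, edgeR adjusted p = 0.0380). Without TetHighProg 2 its log2 fold change was -5.03 (edgeR adjusted p = 0.310), and no gene was called without that library or without TetLowReg 7, TetLowReg 8 or TetLowProg 12. Without TetLowProg 9 edgeR called 7 other genes, and without TetLowReg 6 or TetLowProg 10 it called 4, Fem1b among them.

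At an unadjusted p under 0.05, 2084 genes were higher in low avidity (35.9% of those tested) and 53 were lower (0.912%). The median log2 fold change of all tested genes was 5.56, so a positive value alone did not mark a gene as different from the rest. This median was itself unstable, at 2.15 without TetLowProg 9 and 10.58 without TetHighProg 5. The filter on low counts keeps a gene that is well counted in 3 libraries, and a gene seen in the gene-rich low avidity libraries alone could pass it. Over the 513 genes with 10 counts or more in every library of at least 1 avidity group, the median was 0.23, with 21 genes higher (4.09%) and 4 lower (0.78%). With the log2 number of detected genes as a covariate the median was 0.99, and the balance turned, with 342 genes higher (5.88%) and 1178 lower (20.3%). Neither fit called a gene.

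The number of calls depended on the test. DESeq2, the tool of the study, called 3289 genes higher (51.6% of 6378 with an adjusted p) and 8 lower (0.125%). With poscounts size factors, which use genes with zeros as well, it called 2091 higher (41.6%) and 77 lower (1.53%), and limma-voom called 3734 higher (64.2%) and 39 lower (0.671%). The 8 genes that DESeq2 called lower were Cluap1, Mcm4, Hes7, Paip1, Ndufaf4, Gatc, Aida and Tsix, named here because they are few. Mcm4, a subunit of the replicative helicase, had 111043, 144237 and 3745 counts in TetHighProg and 0, 30, 715, 2503, 479 and 8927 in low avidity. Paip1, a partner of the poly(A)-binding protein, had 28039, 68145 and 6707 in TetHighProg against 98, 1597, 3042, 404, 9316 and 1474. In both genes TetHighProg 1 and 2 were above all low avidity libraries and TetHighProg 5 was below the highest low avidity count.

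**Figure D2:**
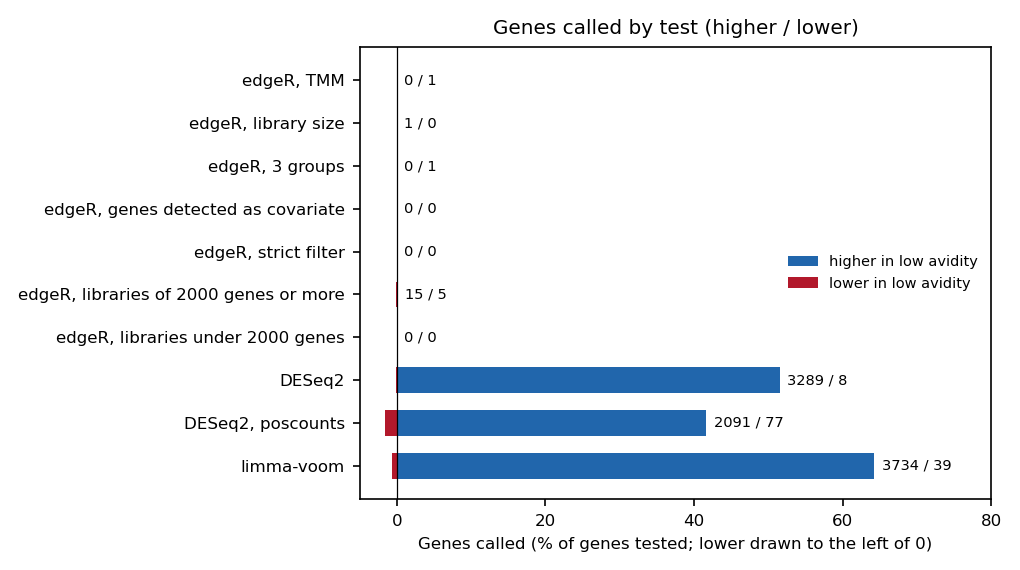
Share of tested genes called higher (right of 0) or lower (left of 0) in low avidity by 10 fits (y axis), in percent of genes tested, with the numbers higher and lower printed at each bar. The edgeR fits called between 0 and 20 genes, while DESeq2 and limma-voom called between 2168 and 3773, nearly all higher.

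Genes that went one way in every library were sought without a model. A gene was taken as separated when the CPM of all 6 low avidity libraries lay above, or below, those of all 3 high avidity libraries. There were 55 genes separated upwards (0.946% of the 5813 tested, and 8.45% of the 651 with a count in all 6 low avidity libraries) and 11 separated downwards (0.189%, and 1.96% of the 561 with a count in all 3 high avidity libraries). Of the 84 ways to choose 3 of 9 libraries, 1 gives each direction, so some genes separate by labels alone. Neither count was tested against that. The 651 and 561 were picked by counts in the group that must be higher, so their shares show no excess. Against TetHighProg, TetLowReg alone separated 279 genes upwards (4.8%) and 58 downwards (0.998%), and TetLowProg alone 388 (6.67%) and 29 (0.499%), with the same 3 high avidity libraries in both. The upward count moved most with the sparse low avidity libraries and the richest high avidity library, and was 300 without TetLowReg 6, 228 without TetLowProg 10 and 201 without TetHighProg 5. The downward count became 54, 111 and 55 without TetHighProg 1, 2 and 5, 18 without TetLowReg 6 or 8, 19 without TetLowProg 9 or 12 and 37 without TetLowProg 10. Of the 55, 36 had a low avidity library under 10 counts, 22 had one with a single count, and 20 had no count in any high avidity library. None of the 55 was called by edgeR, while DESeq2 called 44, DESeq2 with poscounts size factors 23 and limma-voom 52. Of all genes with an adjusted p, these 3 fits called 51.6%, 41.6% and 64.2% higher. The 55 were chosen from the same libraries, so these calls add no support. Only 19 had 10 counts or more in all 6 low avidity libraries. With the number of detected genes as a covariate, 39 of the 55 and 1 of the 11 had an unadjusted p under 0.05, which describes the same libraries that chose them and tests nothing further.

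The genes with the widest gap are ordered here by their known roles, for reading only, and no enrichment of a role was tested. Top2b, the topoisomerase that cuts both DNA strands to relieve torsion at transcribed genes, lies on chromosome 14 (GRCm39 6034301 to 6104605). It had 1, 0 and 0 counts in TetHighProg, 142756, 3073 and 3528 in TetLowReg, and 10330, 6384 and 6473 in TetLowProg. The 6 low avidity libraries were all high and the groups stood far apart, with 84.4 CPM in the lowest low avidity library and 0.0299 in the highest high avidity library. Its log2 fold change was 16.06 (SE 4.66, edgeR adjusted p = 0.101), a value that rests on 1 read in the high avidity libraries. Top2a, the isoform of dividing cells chosen for comparison after its values were seen, had 0, 0 and 13408 counts in TetHighProg and 0 to 11868 in low avidity, so the groups overlapped. Kansl2, a subunit of the NSL histone acetyltransferase complex, had no count in TetHighProg, 3641, 160 and 126 in TetLowReg, and 2676, 708 and 504 in TetLowProg.

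Foxn3, a forkhead repressor on chromosome 12 (GRCm39 99156337 to 99530218), had no count in TetHighProg, 3019, 3133 and 7057 in TetLowReg, and 4894, 1312 and 2973 in TetLowProg. All 6 low avidity libraries were high, at 52.2 to 430 CPM, and against a limit of 3 counts over the high avidity group it was at least 3620-fold higher (edgeR adjusted p = 0.101). Zfp131, a zinc finger transcription factor, had 380, 0 and 325 counts in TetHighProg and 1765 to 17679 in low avidity, and so was present in both groups with a gap of 1.87 on the log2 scale between the nearest libraries. Matr3, an RNA-binding protein of the nuclear matrix, had 0, 4 and 3 counts in TetHighProg and 109 to 32559 in low avidity.

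Rsl1d1, a nucleolar protein of ribosome assembly, had no count in TetHighProg, 1964, 445 and 2871 in TetLowReg, and 13450, 483 and 11892 in TetLowProg. Nemf, which tags stalled nascent chains on the large ribosomal subunit, had 111, 0 and 34 counts in TetHighProg and 1180 to 6540 in low avidity, an edgeR log2 fold change of 6.66 (SE 4.67, adjusted p = 0.306) that lay close to the median of all genes. Of 35 tested translation factors, 1 was separated upwards (2.86%). This was Eif6, which keeps the ribosomal subunits apart and was only just separated, with single counts in TetHighProg 1, TetLowReg 6 and TetLowProg 10 and 1249 to 7842 in the other low avidity libraries. Of 82 tested cytosolic ribosomal protein genes, 6 were separated upwards, among them Rps15a, Rpl21, Rps27, Rpl23 and Rpl39, and none downwards. That is 7.32% beside 0.946% of all genes tested, and 20.0% of the 30 ribosomal genes with a count in all 6 low avidity libraries beside 8.45% of all such genes. Rps15a had 0, 1 and 24 counts in TetHighProg and 190 to 15864 in low avidity. Rpl21 had 17, 0 and 352 counts against 880 to 13077. Rpl39 lay near the floor, with a low avidity median of 1.40 in log2(CPM + 1) and TetLowProg 9 at 7.77. The whole ribosomal list took 1.46% of counts in low and 0.764% in high avidity (exact p = 0.667). Reads of such genes are shared with processed copies elsewhere in the genome, and reads that map to several places are not in these counts, so their levels are uncertain.

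Paics, an enzyme of purine synthesis, had 0, 0 and 72 counts in TetHighProg, 39287, 2390 and 1145 in TetLowReg, and 3443, 23007 and 4736 in TetLowProg (log2 fold change 9.04, SE 4.32, edgeR adjusted p = 0.105). Tbc1d15, which switches off the late endosomal GTPase Rab7, had 0, 0 and 15 counts in TetHighProg, 4399, 11373 and 3406 in TetLowReg, and 2087, 15636 and 19143 in TetLowProg. For both genes the low avidity libraries were high with and without many detected genes, and TetHighProg 5 held all of the high avidity reads.

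Of the 664 tested genes on 31 lists of T cell functions, housekeeping functions and markers of other cells, 9 were separated upwards (1.36%, against 0.893% of the 5149 genes on no list) and 1 downwards. Beside the 6 ribosomal genes and Eif6, these were Il18rap and Hsph1. Il18rap, the accessory chain that lets the interleukin 18 receptor signal, lies on chromosome 1 (GRCm39 40554522 to 40590865). It had no count in TetHighProg, 135804, 1469 and 7401 in TetLowReg, and 1392, 5 and 4047 in TetLowProg. TetLowReg 6 was far above the rest and TetLowProg 10 held 5 counts (edgeR log2 fold change 17.76, SE 4.87, adjusted p = 0.101). Il18r1, the ligand-binding chain of the same receptor, chosen after its values were seen, had 86103, 0 and 697 counts in TetHighProg and 0, 194, 231, 2191, 0 and 302 in low avidity, so this chain was not separated. Hsph1, the chaperone Hsp110, had 0, 1 and 0 counts in TetHighProg, 74669, 1530 and 101 in TetLowReg, and 7435, 82685 and 65 in TetLowProg. Both sparse low avidity libraries were the highest for Hsph1, at 3388 and 3289 CPM. By detection alone, 9 genes had 10 counts or more in all 6 low avidity libraries and in none of the high avidity libraries, which is 2.38% of the 378 genes detected in all 6, among them Foxn3, Hsph1, Kansl2, Matr3, Rexo2, Rrbp1, Rsl1d1 and Top2b. In the other direction 1 gene, Aldoart2, an aldolase copy, was detected in all 3 high avidity libraries and in at most 1 low avidity library (0.317% of 315), with 12, 73 and 12 counts in TetHighProg and 0 to 15 in low avidity.

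**Figure D3:**
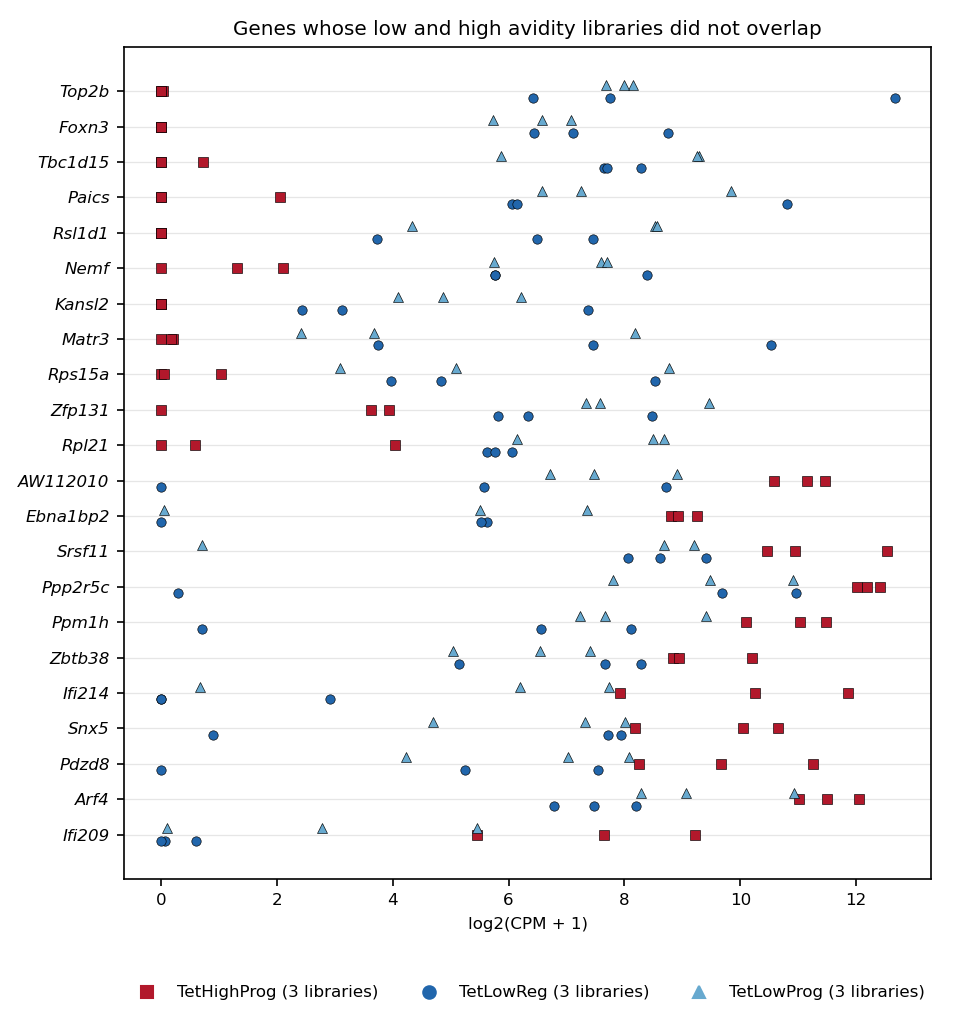
Level of 11 upward separated genes with a wide gap and of the 11 separated downwards (y axis) as log2(CPM + 1) (x axis), 1 point for each of the 9 libraries, with squares for TetHighProg, circles for TetLowReg and triangles for TetLowProg. The upper 11 genes have their squares at the left of all other points, most at or near 0, and the lower 11 have them at the right, with the gap narrowing to nothing at Ifi209.

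Among the 11 genes lower in low avidity, AW112010 had the widest gap. It is annotated as a long noncoding RNA on chromosome 19 (GRCm39 11021549 to 11033246) and is known as an interferon-inducible transcript. It had 76344, 71688 and 34911 counts in TetHighProg, 0, 15243 and 766 in TetLowReg, and 17419, 2607 and 5549 in TetLowProg. Every high avidity library was high, at 1539 to 2831 CPM against 479 in the highest low avidity library, and over pooled counts it was 9.07-fold higher in high avidity (edgeR log2 fold change -3.65, SE 2.08, adjusted p = 0.184).

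Srsf11, an SR-type splicing factor, had 65454, 149371 and 32081 counts in TetHighProg, 5887, 14249 and 11116 in TetLowReg, and 21423, 16 and 12859 in TetLowProg (log2 fold change -3.43, SE 1.89, edgeR adjusted p = 0.167). It was the only one of 38 tested splicing genes to be separated (2.63%, beside 0.189% of all genes tested, and 7.69% of 13 with a count in all 3 high avidity libraries beside 1.96%). Ebna1bp2, a ribosomal RNA processing factor, had 20253, 11238 and 10978 counts in TetHighProg, 0, 1764 and 737 in TetLowReg, and 5910, 1 and 1409 in TetLowProg. Ppp2r5c, a regulatory subunit of protein phosphatase 2A, had 155198, 138536 and 93322 in TetHighProg, 5, 30102 and 32552 in TetLowReg, and 8112, 17941 and 60465 in TetLowProg. The 3 high avidity libraries agreed within 4113 to 5471 CPM, above 1984 in the highest low avidity library (log2 fold change -2.45, SE 1.71, edgeR adjusted p = 0.304). Ppm1h, a phosphatase of the PPM family, had 69503, 72595 and 24759 in TetHighProg and 14 to 17125 in low avidity. Of the sister subunits of Ppp2r5c, chosen after its value was seen, Ppp2r5a had 0, 1 and 8204 counts in TetHighProg and 0 to 9882 in low avidity, and overlapped.

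Arf4, a small GTPase of the Golgi, had 69310, 106649 and 65450 counts in TetHighProg, 3889, 3995 and 4802 in TetLowReg, and 19391, 48810 and 9803 in TetLowProg, so TetLowProg 10 came within 1.07-fold of the lowest high avidity library. Snx5, a sorting nexin of endosomes, had 53625, 26720 and 6588 in TetHighProg and 19 to 9295 in low avidity. Pdzd8, a lipid transfer protein at contacts of the endoplasmic reticulum, had 27159, 61475 and 6854 against 0 to 6799. Zbtb38, a zinc finger protein that binds methylated DNA, had 39427, 11529 and 11118 against 755 to 7377. None of these was called by edgeR, and the adjusted p of the 11 genes ran from 0.101 to 0.593. By limma-voom 6 of the 11 were called, by DESeq2 none, and by DESeq2 with poscounts size factors 5 (AW112010, Srsf11, Ebna1bp2, Snx5 and Ifi209). Of all genes with an adjusted p, these fits called 0.671%, 0.125% and 1.53% lower. The 11 were chosen from the same libraries, so these calls add no support.

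The remaining pair, Ifi209 and Ifi214, belong to the Ifi200 family, a cluster of interferon-inducible genes on chromosome 1 whose proteins carry a pyrin domain or bind DNA. The promoters of the pair are shown because both genes were separated in the same direction and their windows are nearly the same. In each the 300 bases run from 250 before to 50 after the transcript start, from RefSeq on build GRCm38.p6, Ifi214 on the minus strand at chr1:173535908-173536207 and Ifi209 on the plus strand at chr1:173630609-173630908. Capitals mark a match to GAAANNGAAA on either strand, the core of the interferon-stimulated response element.
Ifi214: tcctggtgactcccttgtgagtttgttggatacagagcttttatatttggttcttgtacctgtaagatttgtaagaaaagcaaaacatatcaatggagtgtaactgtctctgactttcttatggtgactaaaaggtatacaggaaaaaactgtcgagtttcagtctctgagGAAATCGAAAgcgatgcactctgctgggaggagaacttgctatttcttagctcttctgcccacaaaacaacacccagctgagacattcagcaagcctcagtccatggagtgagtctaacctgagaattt
Ifi209: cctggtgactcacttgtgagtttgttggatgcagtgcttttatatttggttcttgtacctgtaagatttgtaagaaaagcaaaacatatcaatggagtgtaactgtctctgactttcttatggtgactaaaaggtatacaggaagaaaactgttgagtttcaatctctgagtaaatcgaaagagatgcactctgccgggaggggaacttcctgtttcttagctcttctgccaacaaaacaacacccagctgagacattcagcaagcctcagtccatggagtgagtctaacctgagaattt
The windows aligned over 299 bases with 287 identical (96.0%). Ifi214 held 1 match, starting at position -79 from the transcript start. Ifi209 held no exact match, and its stretch at the same place, taaatcgaaa, differed from that of Ifi214 in 1 letter. The motif was found in 3.44% of 32851 promoter windows of the same length, and among the 11 genes separated downwards Ifi214 alone held it.

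Ifi214 had 40898, 94059 and 5505 counts in TetHighProg, 0, 239 and 0 in TetLowReg, and 2623, 5316 and 19 in TetLowProg. TetHighProg 5 was the lowest of its group and stood only 1.15-fold above TetLowProg 10, whereas TetLowReg was near 0 throughout. The edgeR log2 fold change was -5.89 (SE 2.32, adjusted p = 0.101). Ifi209 had 6640, 15058 and 971 counts in TetHighProg, 1, 19 and 0 in TetLowReg, and 1549, 2 and 186 in TetLowProg, a log2 fold change of -6.22 (SE 3.31, edgeR adjusted p = 0.155). Limma-voom called both genes, with adjusted p of 0.000403 for Ifi214 and 0.00241 for Ifi209, and DESeq2 with poscounts size factors called Ifi209 (adjusted p = 8.4e-06). Here TetLowProg 9 reached 42.6 CPM against 42.8 in TetHighProg 5, so the libraries touched. In the model with 3 groups TetLowReg was below TetLowProg by log2 differences of -4.46 and -5.09 (edgeR adjusted p of 1), which does not show that the 2 groups were alike.

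The other family members were looked up after this pair had been seen. Of 12 members listed, 8 were tested, and all 8, the pair included, had a negative log2 fold change with a median of -1.82, while the median of all tested genes was 5.56 and 1411 of 5813 were negative. Of the 4 members too low to be tested, Ifi206 had 0, 1 and 0 counts in TetHighProg and 125 in TetLowReg 7 and 1738 in TetLowProg 9. Ifi207 had none in TetHighProg and 578 in TetLowReg 8 and 2122 in TetLowProg 9, so these 2 went the other way. With the number of detected genes as a covariate the family median was -2.62 beside 0.99 for all genes. Within the sparse libraries 6 members had a value, with a median of -0.42 beside 0.09. Mndal, Ifi204, Ifi211 and Ifi203 had 10 counts or more in all 9 libraries. For such genes the 0.23 of those with 10 counts in every library of an avidity group is a closer comparison than 5.56. Aim2 turned positive with library size scaling, with DESeq2, with mitochondrially encoded genes left out and without TetLowReg 7, and Aim2 with Ifi208 turned positive with limma-voom and without TetHighProg 5. Mndal had 152621, 114177 and 94186 counts in TetHighProg, 67607, 11160 and 5891 in TetLowReg, and 15341, 108633 and 6235 in TetLowProg. The 4 low avidity libraries with many genes were far below the high avidity libraries, and TetLowProg 10 lay within their range of 4151 to 4568 CPM at 4321. Ifi204 had 5611, 13793 and 13625 counts in TetHighProg and 917 to 14642 in low avidity, and Ifi203 had 6081, 3562 and 5047 against 246 to 8610. TetLowProg 10 lay within the high avidity range for Ifi204, and TetLowProg 9 lay above it for Ifi203. None of the 8 was called by edgeR. Family members share long stretches of sequence, and reads that map to several members are not counted, so levels of single members are uncertain.

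**Figure D4:**
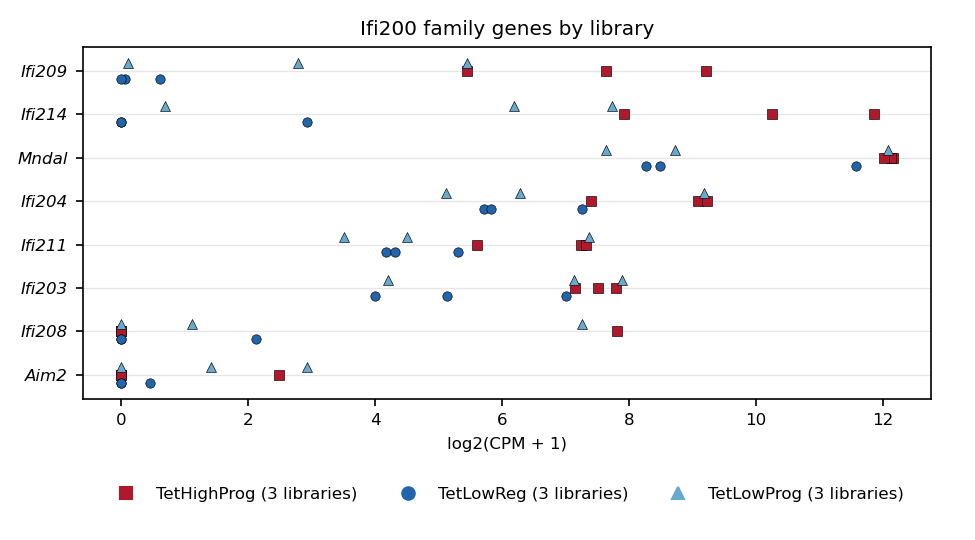
Level of the 8 tested Ifi200 family genes (y axis) as log2(CPM + 1) (x axis) in each of the 9 libraries, with squares for TetHighProg, circles for TetLowReg and triangles for TetLowProg. In Ifi209 and Ifi214 all squares lie at the right of the other points, in Mndal, Ifi204, Ifi211 and Ifi203 some triangles reach them, and in Ifi208 and Aim2 2 of 3 squares are at 0.

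The wider interferon list, which holds antiviral and signaling genes, had a positive median log2 fold change of 1.18, below the 5.56 of all tested genes. Of 22 tested interferon-stimulated genes 3 were higher at an unadjusted p under 0.05, beside 35.9% of all genes, and none was lower. None was called by edgeR, while DESeq2 called 3 with either kind of size factors and limma-voom 13. Of all genes with an adjusted p, DESeq2 called 51.6% higher and 0.125% lower, and with poscounts size factors 41.6% and 1.53%. Limma-voom called 64.2% higher and 0.671% lower, so its 13 are no result about this list. The list median was -2.41 with the number of detected genes as a covariate, -0.46 in gene-rich libraries and -0.37 without TetLowProg 9. It lay below that of all genes with the other scalings, tests and left-out libraries tried, except without TetHighProg 5, where it was 11.43 beside 10.58, and within the sparse libraries, where 4 of its genes gave 1.42 beside 0.09. Irf8, an interferon regulatory factor also made by B cells and myeloid cells, had 0, 0 and 1 counts in TetHighProg, 0, 10305 and 573 in TetLowReg, and 5239, 0 and 39336 in TetLowProg. Parp14, a mono-ADP-ribosyltransferase, had 1, 0 and 0 counts in TetHighProg and 8320 in TetLowProg 9, the highest library, with 0 in both sparse low avidity libraries.

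The lists of T cell function were detected most in the 4 low avidity libraries with many genes. Of 50 tested TCR signaling genes, 16 were higher at an unadjusted p under 0.05 and none lower, with a median of 4.25, below the 5.56 of all genes. Each count of higher genes on the lists that follow stands beside 35.9% of all tested genes at the same p, and a share near that value is no result about a list. The example genes of the function lists, Irf8 and Parp14 included, were taken for being detected in the most low and no high avidity libraries, so their counts show that choice and are given without a test. Fyn, a Src kinase next to the receptor, had no count in TetHighProg, 0, 554 and 270 in TetLowReg, and 7885, 905 and 2133 in TetLowProg. Nfatc3, a factor that enters the nucleus on calcium signals, had no count in TetHighProg and 28769, 2163, 0, 3393, 0 and 79 in low avidity. Of 12 tested cytotoxicity genes 5 were higher and none lower, while the whole list took 0.260% ± 0.179 of counts in low avidity (SD, n = 6) and 0.412% ± 0.249 in high avidity (SD, n = 3; exact p = 0.357), with the highest share, 0.679%, in TetHighProg 1. Ctsw, a cathepsin of cytotoxic cells, had no count in TetHighProg, 0, 2945 and 419 in TetLowReg, and 37471, 52422 and 4223 in TetLowProg. Of 9 tested exhaustion genes 3 were higher, and the inhibitory receptor gene Ctla4 had no count in TetHighProg, 0, 273 and 683 in TetLowReg, and 8764, 0 and 716 in TetLowProg. Of 19 tested progenitor and memory genes 8 were higher, of 26 migration genes 11, and of 24 cytokine receptor and JAK-STAT genes 6, with 1 lower. Stat3, the transcription factor of interleukin 6 and 10 receptors, had no count in TetHighProg, 0, 11266 and 1921 in TetLowReg, and 17511, 24144 and 18256 in TetLowProg. Coro1a, an actin regulator needed for T cell survival, had no count in TetHighProg, 0, 973 and 2614 in TetLowReg, and 83558, 15025 and 13121 in TetLowProg. TetLowReg 6 was the library without reads in all of these but Nfatc3.

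Over 29 lists with 3 or more tested genes, 17 had a median below that of all tested genes, and 10 did without TetHighProg 5. Of 22 tested apoptosis and survival genes 11 were higher at an unadjusted p under 0.05, again beside 35.9% of all genes, with a median of 9.99. Casp1, the inflammatory caspase, had no count in TetHighProg, 0, 3595 and 2146 in TetLowReg, and 282, 43764 and 686 in TetLowProg. Of 22 autophagy genes 8 were higher with a median of 7.34, of 21 DNA damage genes 7 were higher and 2 lower with a median of 4.17, and of 70 nuclear OXPHOS genes 20 were higher with a median of 1.42. Of 39 mitochondrial ribosomal genes 19 were higher with a median of 9.73, and of 82 cytosolic ribosomal genes 7 with a median of 1.96. With the number of detected genes as a covariate the medians of TCR signaling, apoptosis, autophagy, DNA damage, nuclear OXPHOS and cytosolic ribosomal genes were 0.56, 4.08, 3.05, -0.69, -0.68 and -0.27, beside 0.99 for all genes. That of mitochondrial ribosomal genes was 2.38. With library size, 3 groups or a library left out, TCR signaling ran from 2.12 to 11.54 and DNA damage from -0.94 to 10.83. Nuclear OXPHOS ran from 0.88 to 11.21 and mitochondrial ribosomal genes from 1.27 to 11.81, so the order of lists is no result. No list had a called gene in edgeR. DESeq2 called 12 TCR signaling, 22 nuclear OXPHOS, 16 mitochondrial ribosomal and 9 apoptosis genes higher and none of these lists' genes lower. Of all 5813 genes tested with edgeR it called 2316. The share of all counts that a list took did not always follow its number of higher genes. DNA damage genes took 0.156% ± 0.100 in low avidity (SD, n = 6) and 0.531% ± 0.379 in high avidity (SD, n = 3), with overlapping libraries (two-sided exact p = 0.0476, and 0.644 after adjustment over 46 measures). Apoptosis genes took 0.194% ± 0.120 and 0.0448% ± 0.0511 (exact p = 0.0476, 0.644 adjusted). Cell cycle genes took 0.433% and 1.18% (exact p = 0.0714), and migration genes 2.43% and 4.24% (exact p = 0.0952).

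One list differed in its share of counts without overlap. Sirtuins and histone deacetylases, which take acetyl groups from histones and other proteins, made up 0.0300% to 0.398% of gene counts in the 6 low avidity libraries and 0.000209% to 0.0152% in the 3 high avidity libraries (exact p = 0.0238, the smallest the 84 ways allow, and 0.644 after adjustment over 46 measures). Sirt7, a nucleolar deacylase, had 0, 0 and 1 counts in TetHighProg, 70393, 12349 and 7369 in TetLowReg, and 10585, 1 and 31236 in TetLowProg. It was high in 5 of 6 low avidity libraries. Sirt2, a cytoplasmic tubulin deacetylase, had 0, 4 and 1 counts in TetHighProg and 1, 7098, 3997, 1614, 0 and 5798 in low avidity.

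**Figure D5:**
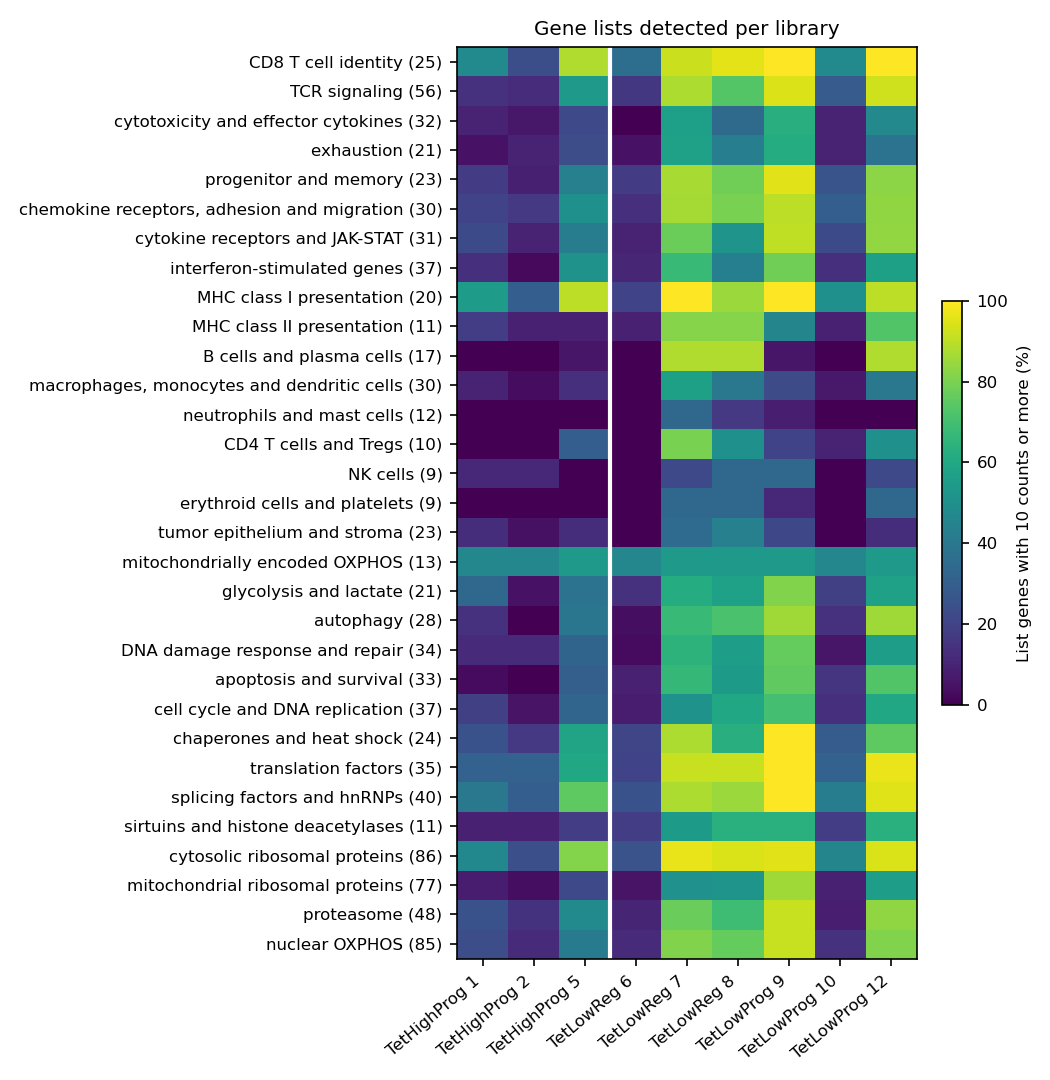
Share of each list's genes with 10 counts or more, in percent (color), for the lists (y axis, with the number of genes) in each of the 9 libraries (x axis), the white line parting high from low avidity. TetLowReg 6 and TetLowProg 10 resemble TetHighProg 1 and 2 across most lists, and the B cell list is detected in TetLowReg 7 and 8 and TetLowProg 12.

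Markers of B cells and of MHC class II presentation moved with some of the low avidity libraries. MHC class II genes took 4.85%, 4.03% and 6.18% of counts in TetLowReg 7, TetLowReg 8 and TetLowProg 12 and at most 0.150% in the other 6 libraries. B cell and plasma cell genes took 0.412%, 0.357% and 0.415% in the same 3 libraries and at most 0.0242% elsewhere, and 13 of 14 tested B cell genes and 8 of 9 class II genes were higher at an unadjusted p under 0.05, beside 35.9% of all tested genes. H2-Aa, a class II alpha chain chosen after its values were seen, had 0, 0 and 2 counts in TetHighProg and 1, 155460, 46134, 151, 0 and 125217 in low avidity. Cd74, the invariant chain, had 17, 37532 and 12898 against 19, 1475807, 562795, 1, 3 and 1627251. Of 17 B cell genes, 16 were detected in at least 1 low avidity library and 1 in TetHighProg. Genes of macrophages, monocytes and dendritic cells were not confined to those 3 libraries. They took 0.968% in TetLowReg 7, 0.192% in TetLowReg 8 and 0.144% in TetLowProg 12, but 0.384% in TetHighProg 1. Of 11 tested, 6 were higher at the same unadjusted p. With the number of detected genes as a covariate their median was -1.40, beside 0.99 for all genes. Irf8 was highest in TetLowProg 12 and TetLowReg 7, and the part of other cells in that result was not tested.

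EdgeR called no gene between TetLowReg and TetLowProg. In the model with 3 groups 0 of 5813 genes were called between them and 54 had an unadjusted p under 0.05 (0.929%), limma-voom called 0, and DESeq2 called 83 of 4408 (1.88%). Of the 55 genes separated upwards 21 had the higher mean log2(CPM + 1) in TetLowReg, and of the 11 separated downwards 2 did. Ifi209 and Ifi214 had the lower values in TetLowReg, and Il18rap was higher in TetLowReg by 5.29 on the log2 scale (edgeR adjusted p of 1), a value that rests on TetLowReg 6.

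Among the 5 libraries with 2000 detected genes or more, a split made after seeing the data, TetHighProg 5 was the only high avidity library, with 3181 genes against 6443 to 8071. Its spread was assumed to be that of the others, so the calls describe that library against 4 and not avidity. Of 12933 genes 15 were called higher (0.116%) and 5 lower (0.0387%). The 15 held Cd74, H2-Aa, H2-Ab1, H2-Eb1 and H2-Ob of the class II pathway, Dnase1l3, a nuclease of dendritic cells and macrophages, and Coro1a. H2-Ob had 49998 counts in TetHighProg 1, which this fit left out, and 0 to 17354 in low avidity. Cybb and Ip6k1, also among the 15, had 56359 and 30298 counts in TetHighProg 1. The 5 were Oas1c, Galm, Cdca4, Zfp422 and Pstk, each with 5449 to 11570 counts in TetHighProg 5 and at most 5 in any other library. Within the 4 sparse libraries no gene of 852 was called, with 25 higher (2.93%) and 27 lower (3.17%) at an unadjusted p under 0.05.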

How the data were processed

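Members and gene lists were chosen with earlier results of these data known. The study sorted GSW11 tetramer high and low CD8+CD44+ TILs, prepared Smart-seq2 libraries and aligned reads to GRCm39 with STAR 2.7.6a. The deposited values are raw counts per gene made by the authors, unstranded and without normalization. The paper names featureCounts, the tables have the layout that STAR writes, and no annotation release is given in the sources used here. Reads at several places or in overlapping genes are not counted, and strand is not marked, so a gene and its antisense partner cannot be told apart. Each table held 32976 genes, of which 28645 matched the GENCODE annotation used for names. The 4331 others stayed in totals and tests as identifiers, and took up to 13.4% of counts in 1 library. The 4 summary lines were left out.

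Groups came from sample titles. Counts of 6 low and 3 high avidity libraries (16405306 to 36429515 per library) were tested with edgeR 4.0.16 (quasi-likelihood, TMM factors 0.600 to 1.82, filterByExpr, 2-level model, common dispersion 7.58, prior count 2) in R 4.3.3, two-sided. A gene was called where its adjusted p (Benjamini-Hochberg) was under 0.05 and its log2 fold change was beyond 2 in either direction. SE is the log2 fold change divided by the square root of F. Pooled ratios divide summed counts by summed totals, and a group at 0 was set to 3 counts over the group. Single values had two-sided exact permutation tests. DESeq2 1.42.0 and limma 3.58.1 (voom with quality weights) were alternatives, and edgeR, limma-voom and DESeq2 were tested on simulated data. Fits of gene-rich and of sparse libraries alone, and minimum counts in every library of a group, were added after seeing the data.

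Named genes were the sort and staining markers, up to 12 separated genes per direction with the widest gap in log2(CPM + 1), list genes separated or called, called genes, and up to 2 genes per function list detected in the most low and no high avidity libraries. Of the genes this rule names, 2 are not reported here. Promoters are RefSeq windows on GRCm38.p6, and gene coordinates are from GRCm39. Figures used Python 3.11.15 and matplotlib 3.10.9.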

Additional observations from a re-analysis of the deposited data

Results flagged for a closer look

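Of 45 sets of 6 low avidity values checked, 11 held a library whose distance from its nearest neighbor was large against the range of the 6. No rate by chance can be set beside this, because the sets share the same 6 libraries and some hold values at 0. TetLowReg 7 stood apart in the share of counts of its largest gene, mt-Cytb, at 40.2% against a median of 8.78%, and in the mitochondrially encoded share, at 42.2% against 3.28%. TetLowProg 9 stood apart in the cytosolic ribosomal share, 4.98% against a median of 0.892%, and in the share of identifiers outside the annotation, 13.4% against 0.658%. Among gene levels in log2(CPM + 1), TetLowReg 6 was apart upwards for Top2b at 12.66 against a median of 7.87, and downwards for AW112010 at 0 against 7.09, for Ppp2r5c at 0.29 against 9.59 and for Ppm1h at 0.71 against 7.45. TetLowProg 10 was apart for Srsf11 at 0.71 against 8.65. TetLowProg 9 was apart for Rpl39 at 7.77 against 1.40 and for Fem1b at 2.25 against 0.03. For Top2b the other 5 low avidity libraries alone lay at 84.4 to 284 CPM, above all high avidity libraries. For AW112010, Srsf11, Ppp2r5c and Ppm1h, the library that stood apart was on the side away from the high avidity libraries.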

How the results depend on the processing

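No paired analysis was possible because the low and high avidity groups share no replicate number, and which TetHighProg and TetLowProg libraries share 1 of the 3 progressing tumors is not given in the sources used here. With edgeR 1 gene was called (Fem1b, lower), and 1 with a 3-group model. With library size and in TetLowProg alone the 1 gene called was another, an identifier outside the annotation, and was higher. The count was 0 without a filter, with 10 counts in every library of 1 avidity group, with robust dispersion, with detected genes as a covariate and within sparse libraries, 2 for TetLowReg alone, 3 with thinned libraries, 5 without mitochondrially encoded genes, 20 in gene-rich libraries, 3297 with DESeq2, 2168 with poscounts size factors, 3773 with limma-voom and 0 to 7 with each library left out. Genes separated upwards (55) became 34 with thinned libraries, 279 in TetLowReg alone, 388 in TetLowProg alone, 2296 in gene-rich libraries, 282 in sparse libraries, 19 with 10 counts in every low avidity library and 55 to 300 with a library left out. Genes separated downwards (11) became 4 at a 2-fold gap, 58 in TetLowReg alone, 29 in TetLowProg alone, 1091 in gene-rich libraries, 221 in sparse libraries and 11 to 111 with a library left out. TetLowReg against TetLowProg gave 0 genes, 83 with DESeq2 and 0 to 2 with a library left out. Lists with a median under that of all genes (17) were 10 to 18 with a library left out. The cytosolic ribosomal share, 0.698 percentage points higher in low avidity, ranged from -0.00509 (without TetLowProg 9) to 0.892. For Tcf7 the log2 fold change became 0.33 with DESeq2, 4.97 with limma-voom, 3.64 without TetHighProg 5, -0.59 without TetHighProg 2, 0.23 and 0.31 without TetLowReg 6 and 7, and 0.07 without TetLowProg 9, and the cause was not tested. Over 37 named genes with a fit, 382 of 438 alternative values kept direction and side of the threshold, 45 passed it, 5 lost it (Fem1b) and 6 turned (Tcf7). Depth limits genes with single counts. Libraries thinned to the smallest total held means of 5043 and 1641 detected genes.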
